A study of Mus musculus with 48 samples.

Results

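The genes described here are 10 autosomal imprinted genes, H19, Igf2, Igf2r, Grb10, Peg3, Peg10, Meg3, Mest, Snrpn and Cdkn1c, measured in single cells of the inner cell mass (ICM) of the mouse blastocyst. They were chosen by name, and each symbol matched 1 Ensembl identifier among the 49671 genes of the count table. At an imprinted gene, a mark laid down in the egg or the sperm leaves the maternal or the paternal copy active and the other copy silent. Germline DNA methylation at control regions carries most of these marks, and the embryo protects it through the wave of demethylation that precedes implantation. Many imprinted genes act on growth of the fetus and placenta, and several are known to stay low until after implantation.

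The study sequenced cells from 3 ICMs at E3.75, counted in days after mating, when precursors of the epiblast (pEPI) and of the primitive endoderm (pPrE) begin to part. Mice that carried PDGFRa::H2B-GFP/+, a green nuclear reporter placed in the Pdgfra locus, were intercrossed with F1 hybrids (C57BL/6JxCBA/J), without added treatment. By the paper, the 3 embryos were positive for the reporter. They were picked for green cells scattered in the ICM and for proper brightness. The sample titles read WT. ICMs were freed of trophectoderm by immunosurgery and dissociated, and Smart-seq2 libraries, which cover whole transcripts and carry no molecular identifiers, were made from 48 cells. The cells form 1 labelled group, and the branch of each cell, 25 pEPI and 23 pPrE, was read by eye from the study's clustering of the same cells.

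No label ties a cell to its embryo, so the 48 cells were treated as 1 sample without replicates. No test was made between cells, and SDs describe the spread between them. The 95% intervals of summed counts and ratios cover counting error only, and those of shares of cells are exact binomial (Clopper-Pearson) intervals that treat cells as independent draws. A count per gene does not separate the maternal from the paternal copy, so these values say nothing of which copy was active. Total counts per cell ran from 1718970 to 7342785 with a median of 4017100. The median total was 3751300 in pEPI and 4251400 in pPrE cells, and the median number of genes detected was 10300 and 10254.

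Marker lists were set beside the branches. As the branches came from the expression of these same cells, a difference in markers is no separate evidence for them. All 7 of the 8 pPrE markers with a mean FPKM (fragments per kilobase of exon, scaled by library size) of at least 1 had a mean at least 2-fold higher in pPrE cells, as for Gata4 at 52.9 against 5.25 FPKM. Of the 8 pEPI markers 5 were at least 2-fold lower in pPrE cells, with Nanog at 43.7 against 315 FPKM. Trophectoderm markers summed to 103 ± 88.0 CPM (counts scaled to a total of 1e6 per cell; SD) in pEPI and 80.2 ± 49.0 CPM in pPrE cells. Krt8 was the most abundant of these 8 at 34.3 FPKM. None of the 8 was at 0 over all cells, but Cdx2 had 60 counts in 3 cells and Elf5 112 counts in 5.

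The listed genes spanned a wide range of levels. Snrpn led with a mean of 84.8 ± 38.01 FPKM (SD over 48 cells), a level that 6.62% of the 10880 genes with a mean of at least 1 FPKM reached or passed. Mest followed at 8.63 ± 7.47 FPKM and Igf2r at 5.07 ± 3.21 FPKM. Peg3 at 1.24 ± 1.98 and Grb10 at 0.958 ± 1.34 FPKM came next. Cdkn1c (0.386 FPKM), Meg3 (0.326), Igf2 (0.296) and Peg10 (0.00120) lay lower, and H19 was at 0. Among neighbours in this order, Snrpn exceeded Mest by more than the SD of either gene. Mest exceeded Igf2r by more than the SD of Igf2r but not that of Mest, and Igf2r exceeded Peg3 by more than the SD of either gene. From Peg3 down to Igf2, neighbours differed by less than the SD of either gene, and below Igf2 only the 2 counts of Peg10 remained. Snrpn took 61.4% of the 59203 counts on the listed genes together.

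**Figure D1:**
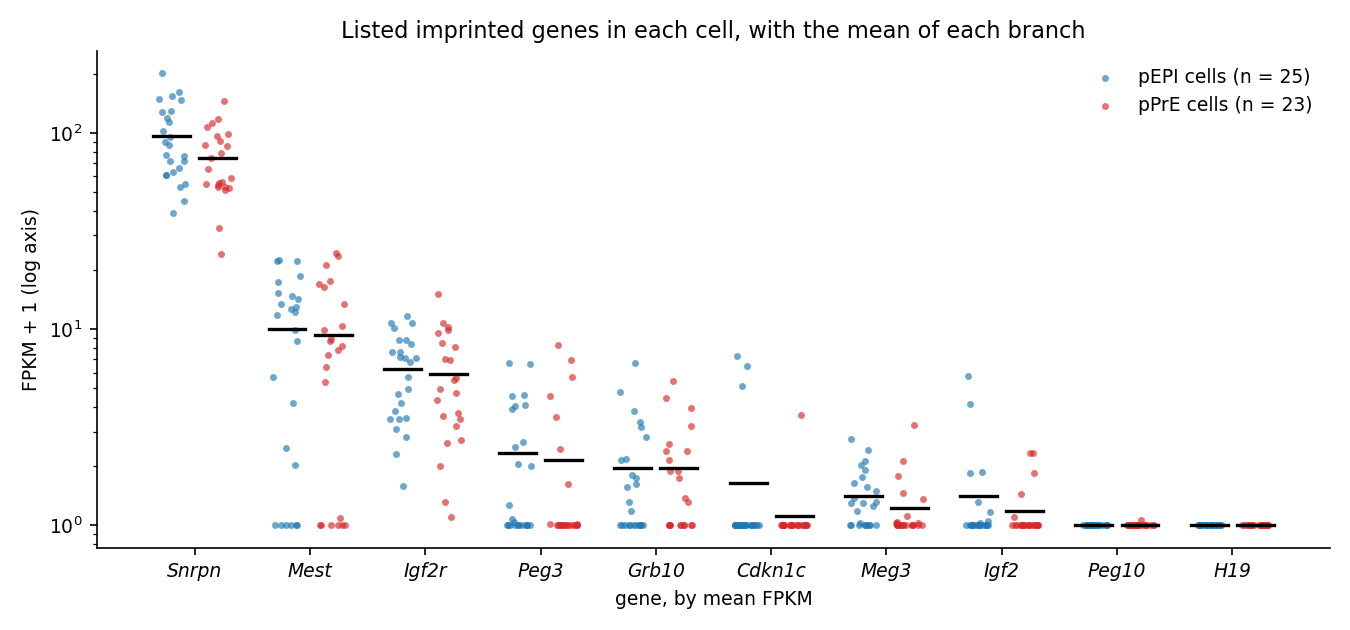
Each point is 1 cell, plotted as FPKM + 1 on a log axis for the 10 listed genes in the order of their mean, with 25 pEPI cells in blue, 23 pPrE cells in red and black lines for the means. Snrpn is above 0 in every cell, Mest, Peg3, Grb10 and Meg3 have cells at 0 in both branches, and no cell holds a count of H19.

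A gene was called on in a cell at 10 CPM or more. CPM is not scaled for gene length, so this minimum stands for a lower FPKM in a longer gene. Snrpn was on in 48 of 48 cells and Igf2r in 44. Mest was on in 33 cells (68.8%, 95% interval 53.7% to 81.3%), Peg3 in 17 (35.4%, 22.2% to 50.5%), Grb10 in 16 (33.3%, 20.4% to 48.4%) and Meg3 in 11 (22.9%, 12.03% to 37.3%). Igf2 and Cdkn1c were on in 2 cells each, and Peg10 and H19 in 0. Thus 4 of the 9 listed genes with a count were on in 10% to 90% of cells, against 31.5% of all genes with a count and a known length. Of the 4 listed genes with a mean of at least 1 FPKM (Snrpn, Mest, Igf2r and Peg3), 2 were of this kind, against 52.4% of all 10880 such genes. With so few listed genes these shares cannot be ranked.

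**Figure D2:**
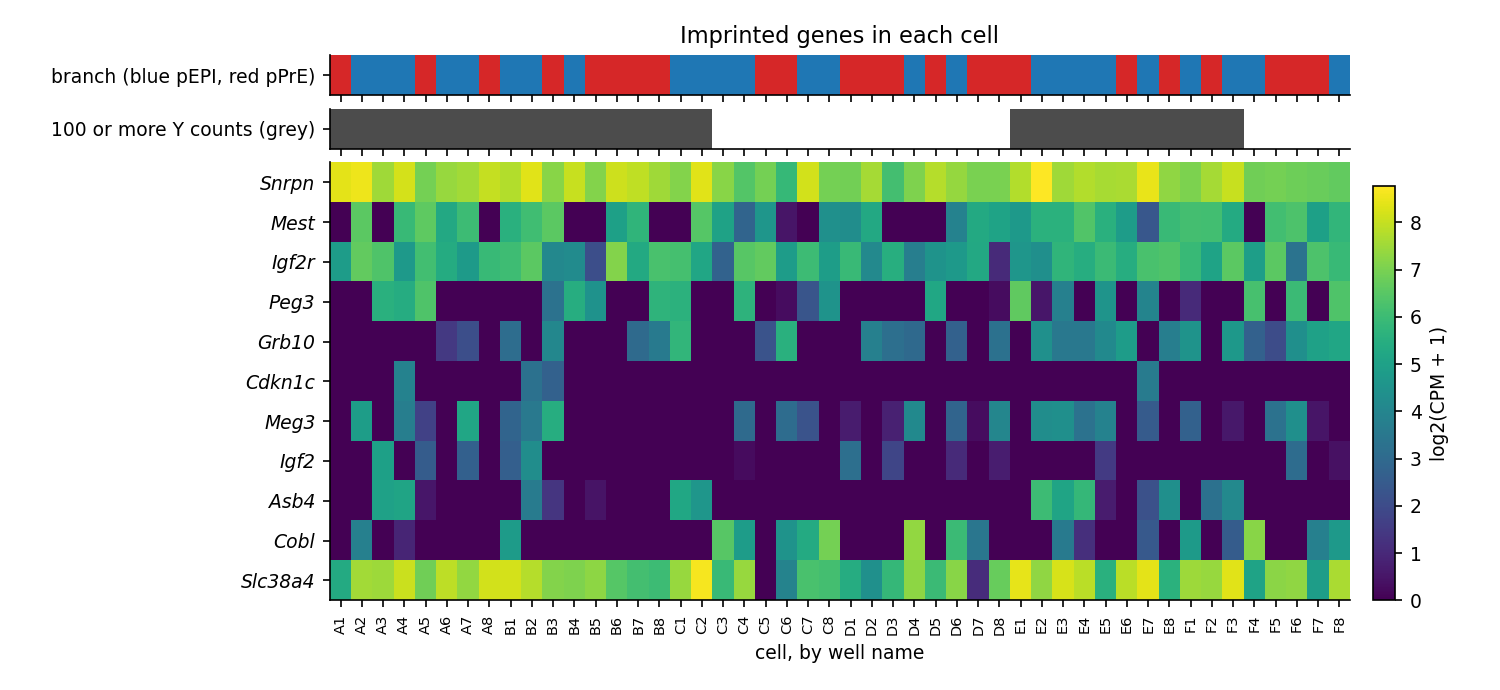
Each column is 1 cell in the order of its well name, each row 1 imprinted gene as log2(CPM + 1), with bars above for the branch (blue pEPI, red pPrE) and for 100 or more Y-linked counts (grey). Snrpn is bright in all 48 cells, Mest, Peg3, Grb10 and Meg3 come and go from cell to cell, and Asb4 is dark in all 19 cells without Y-linked counts.

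The paternally expressed genes among the listed ones are Snrpn, Mest, Peg3, Peg10 and Igf2. Snrpn (ENSMUSG00000102252, chr7:59982495-60140219, minus strand, GRCm38) encodes a core protein of small nuclear ribonucleoproteins that take part in splicing. In pEPI cells it ran from 37.9 through a median of 85.7 to 199.9 FPKM, and in pPrE cells from 23.2 through 64.7 to 143 FPKM. The branches overlapped over most of this range. The mean was 95.6 ± 42.3 FPKM in pEPI and 73.1 ± 29.3 FPKM in pPrE cells, a log2 ratio of -0.39 (pPrE over pEPI, -0.42 to -0.36). The pPrE cell was the higher in 33.6% of cell pairs, and neither SD was reached by the difference. A ratio at or below that of Snrpn was found for 23.3% of all 10880 genes.

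Mest (ENSMUSG00000051855, chr6:30723547-30748465, plus strand) encodes a protein of the alpha/beta hydrolase family first described in mesoderm. The pEPI cells with Mest on numbered 17 of 25, the pPrE cells 16 of 23. Its level ran from 0 through 10.8 to 21.3 FPKM in pEPI and from 0 through 7.22 to 23.4 FPKM in pPrE cells. High and empty cells thus occurred side by side in both branches. In 12 cells Mest had no count, and the other 36 were spread up to 94.2 CPM. From means of 8.95 ± 7.46 and 8.29 ± 7.63 FPKM the log2 ratio was -0.11 (-0.18 to -0.04). Split by the Y-linked counts described further on, it was -0.30 in cells with and 0.94 in cells without, so the direction turned.

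Peg3 (ENSMUSG00000002265, chr7:6703892-6730431, minus strand), a zinc finger protein known for roles in growth and maternal behaviour, was on in 11 pEPI and 6 pPrE cells. Its level ran from 0 through 0.0796 to 5.75 FPKM in pEPI cells and from 0 through 0 to 7.30 FPKM in pPrE cells. The branches overlapped, and its 3212 counts came from 23 cells, with none in the other 25. The means were 1.33 ± 1.83 and 1.14 ± 2.17 FPKM, a log2 ratio of -0.22 (-0.32 to -0.11). The ratio was 0.71 within the cells with Y-linked counts and -1.65 within the cells without, so its direction depended on the cells used. Peg10 (ENSMUSG00000092035, chr6:4747306-4760517, plus strand), a gene of retrotransposon origin needed in the placenta, had 2 counts (interval 0.242 to 7.22), both in the pPrE cell F2.

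Few counts fell on the growth factor Igf2, while its receptor was on in most cells at 10 CPM. Igf2 (ENSMUSG00000048583, chr7:142650766-142666816, minus strand), which acts in fetal growth, had 282 counts in 13 cells. The pEPI cells A3 with 75 counts and B2 with 83 were the cells in which it was on. It ran from 0 through 0 to 4.73 FPKM in pEPI and from 0 through 0 to 1.34 FPKM in pPrE cells. Most cells of both branches thus had no count of Igf2. H19 (ENSMUSG00000000031, chr7:142575529-142578143, minus strand), the maternally expressed long noncoding RNA that shares its control region with Igf2, had 0 counts of 189591447. That allows a level of up to 0.0158 CPM over the 48 cells, and 0 of 48 cells allows a share of up to 7.40% of cells on. H19 was not detected at this depth.

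Igf2r (ENSMUSG00000023830, chr17:12682406-12769664, minus strand), which is maternally expressed in most tissues and encodes the receptor that takes up and clears Igf2, had 9602 counts and was detected in every cell. It was on in 24 pEPI and 20 pPrE cells. Its level ran from 0.584 through 5.80 to 10.6 FPKM in pEPI cells and from 0.105 through 3.93 to 14.01 FPKM in pPrE cells. The branches overlapped throughout. Their means, 5.25 ± 2.92 and 4.87 ± 3.55 FPKM, stood at a log2 ratio of -0.11 (-0.17 to -0.05). It was -0.17 in cells with and 0.18 in cells without Y-linked counts, so the direction turned. Airn, the paternal noncoding transcript that silences Igf2r in cis in many tissues, had 38 counts in 2 pPrE cells, and its neighbours Slc22a2 and Slc22a3 had 0.

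Grb10 (ENSMUSG00000020176, chr11:11930508-12038683, minus strand), an adaptor protein that dampens insulin and growth factor signalling, was on in 8 pEPI and 8 pPrE cells. It ran from 0 through 0.321 to 5.67 FPKM in pEPI and from 0 through 0.376 to 4.43 FPKM in pPrE cells, so the branches overlapped throughout. The branch means of 0.969 ± 1.44 and 0.947 ± 1.26 FPKM gave a log2 ratio of -0.03 (-0.17 to 0.10). This joins opposite differences, -0.74 in cells with and 0.83 in cells without Y-linked counts. Cdkn1c (ENSMUSG00000037664, chr7:143458339-143461050, minus strand), a maternally expressed inhibitor of cyclin-dependent kinases, had 161 counts in 4 cells. These were the pEPI cells A4 (62 counts), B2 (39) and E7 (49) and the pPrE cell B3 (11). Its highest level was 6.31 FPKM in pEPI and 2.63 FPKM in pPrE cells, and its median was 0 in both.

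Meg3 (ENSMUSG00000021268, chr12:109541001-109571726, plus strand), a maternally expressed long noncoding RNA of the Dlk1 region, was on in 8 pEPI and 3 pPrE cells. Its level ran from 0 through 0.304 to 1.74 FPKM in pEPI and from 0 through 0 to 2.26 FPKM in pPrE cells. The branches overlapped, and cells without a count occurred in both. With all cells thinned to 1718970 counts it was on in 9 and 4 cells, and the other 9 listed genes were on in as many cells as before. The means of 0.417 ± 0.495 and 0.227 ± 0.529 FPKM gave a log2 ratio of -0.88 (-1.07 to -0.69), a difference above the SD of neither branch. It was -1.36 in cells with and 0.22 in cells without Y-linked counts, so for Meg3 too the direction turned.

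None of the 4 listed genes with a mean of at least 1 FPKM was 2-fold higher in pPrE cells, where 6.2% of all 10880 genes were, and none was 2-fold lower, where 9.03% were. Their median log2 ratio was -0.16, against 0.00 over all these genes. The other 6 listed genes lay below that minimum with union exon length, and of these Igf2 (-1.20, -1.61 to -0.81) and Cdkn1c (-2.48, -3.51 to -1.60) had ratios past 2-fold that rested on 282 and 161 counts. The ratio of Igf2 was -3.06 in cells with and 3.20 in cells without Y-linked counts, so its pooled value gives no direction that holds in both sets. The listed genes summed to 342 ± 114 CPM in pEPI cells and 278 ± 79.6 CPM in pPrE cells. Snrpn alone made up 216 and 167 CPM of these sums. Split by Y-linked counts, the sum was 364 CPM in cells with and 232 CPM in cells without them.

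**Figure D3:**
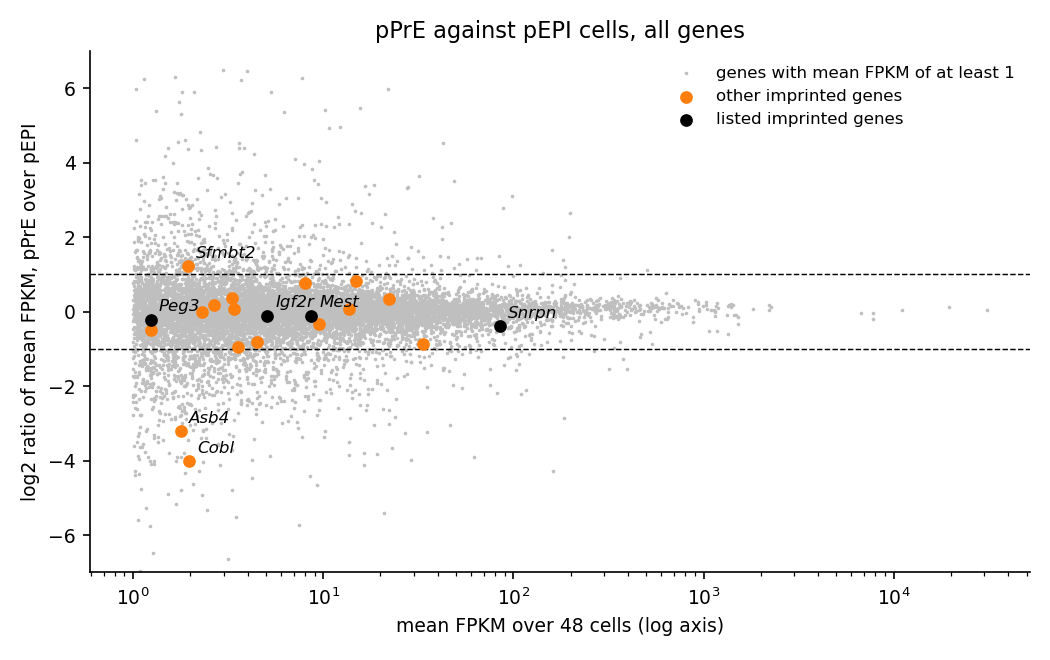
Each point is 1 gene with a mean of at least 1 FPKM over 48 cells, with the mean on a log axis across and the log2 ratio of mean FPKM, pPrE over pEPI, upwards; black points are listed genes, orange points other imprinted genes, dashed lines 2-fold, and of all these genes 10 lie outside the axis and 95 have no count in a branch. The 4 listed genes lie between -0.39 and -0.11, while Asb4 at -3.21 and Cobl at -4.02 lie far below the lower line.

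Variation between cells was read from CV squared, the variance of FPKM over its squared mean, which was 0.201 for Snrpn, 0.401 for Igf2r, 0.749 for Mest and 2.56 for Peg3. Genes of low mean vary more, so a cubic curve of ln CV squared on mean log2(FPKM + 1) was fitted across all 10880 genes. Snrpn (0.43 above the curve) and Mest (0.26) were more variable than genes of their level, and Peg3 (-0.34) and Igf2r (-0.49) less. Neither stood out, as 24.9% of all genes had an excess at or above that of Snrpn and 34.4% at or above that of Mest. Of all genes 51.0% lay above the curve. When the curve was fitted within pEPI or within pPrE cells alone, the number of listed genes above it was also 2.

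Neighbouring imprinted genes often share a control region, so their cells were compared. Meg3 and Rian, noncoding RNAs of the same region, were on together in 4 cells, Meg3 alone in 7 and Rian alone in 5, where independent patterns would give 2.06 shared cells. Rtl1 was on in 3 cells, Dio3 in 3, Mirg in 0, and Dlk1 had no count. Mest and Copg2, which overlap at their ends on opposite strands, were on together in 16 cells, with 13.8 under independence. In the region of Cdkn1c, Kcnq1ot1 was on in 19 cells, Tssc4 in 38 and Phlda2 in 9, while Kcnq1, Ascl2 and Osbpl5 had no count, and Slc22a18 and Cd81 were each on in 1 cell. The highest level of Kcnq1ot1 was 1.22 FPKM, in cell F6, so its cells on at 10 CPM were low by FPKM. Around Snrpn, Ube3a was on in 47 cells, Ndn in 2, Mkrn3 and Peg12 in 1, and Magel2 in none. Beside Peg3, Zim1 had no count and Usp29 had 15, beside Peg10, Sgce was on in 1 cell and Calcr in 2, and Klf14, near Mest, had no count.

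The 50 other imprinted genes were listed from general knowledge, and some, such as Asb4, Cobl, Copg2 and Commd1, are imprinted only in some tissues. Of these 50, 37 had a count and 16 had a mean of at least 1 FPKM. Of these 16, 1 was at least 2-fold higher in pPrE cells and 2 were at least 2-fold lower, close to the shares of 6.2% and 9.03% over all genes. The gene that was higher was Sfmbt2, a Polycomb-related gene that is paternally expressed through maternal H3K27me3. It ran from 0 through 0 to 7.51 FPKM in pEPI and from 0 through 0.643 to 28.05 FPKM in pPrE cells. The branches overlapped, and the means of 1.18 ± 1.91 and 2.75 ± 6.07 FPKM gave a log2 ratio of 1.22 (1.11 to 1.32). The pPrE cell E6 held 33.3% of its counts, and with its highest cell left out the log2 ratio was 0.43, short of 2-fold.

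The genes that were lower were Asb4 and Cobl, which lie near Peg10 and near Grb10 and whose imprinting in the ICM is not known from these data. Asb4, a subunit of ubiquitin ligases, was on in 9 pEPI cells and 1 pPrE cell. It ran from 0 through 0 to 15.999 FPKM in pEPI and from 0 through 0 to 5.06 FPKM in pPrE cells, with a log2 ratio of -3.21 (-3.49 to -2.94). By the mean of log2(FPKM + 1) it was -0.95, short of 2-fold. Cobl, an actin nucleator, was on in 12 pEPI and 2 pPrE cells. It ran from 0 through 0.631 to 19.3 FPKM in pEPI and from 0 through 0 to 2.33 FPKM in pPrE cells, with a log2 ratio of -4.02 (-4.22 to -3.83). The ratio of Cobl was smaller, -1.17, by the mean of log2(FPKM + 1), and -1.91 with a pseudocount of 1 FPKM, both still past 2-fold. Most of the signal of both genes sat in pEPI cells, but many pEPI cells had none.

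Of the 16 with a mean of at least 1 FPKM, 11 were on in 10% to 90% of cells, against 52.4% of all such genes. Of the 37 with a count it was 16, against 31.5% of all genes with a count and a known length: Asb4, Cobl, Sfmbt2, Copg2, Rian, Kcnq1ot1, Tssc4, Phlda2, Ppp1r9a, Trappc9, Blcap, Mcts2, Inpp5f, Zdbf2, Jade1 and Smoc1. Mcts2, a retrogene, was on in 10 pEPI and 18 pPrE cells, and Kcnq1ot1 in 7 and 12. Ppp1r9a, another gene near Peg10, was on in 5 pEPI cells and no pPrE cell. Of the 4 genes that protect imprints in the early embryo, Zfp57, Zfp445, Trim28 and Dppa3, Zfp57 alone was lower in pPrE cells by more than 2-fold. Of all 10880 genes 9.03% were at least 2-fold lower. Zfp57 ran from 3.58 through 37.3 to 81.8 FPKM in pEPI and from 1.601 through 15.1 to 39.99 FPKM in pPrE cells. The ranges overlapped, with pPrE cells in the lower part, at a log2 ratio of -1.36. It was -0.97 in cells with Y-linked counts, short of 2-fold, and -1.95 in cells without.

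The genes whose pattern over the 48 cells was most like that of a listed gene were looked up by Spearman correlation of FPKM, as a description of cells that share embryos and differ in depth. In sparse counts a weak correlation is no finding. The search ran over the 10880 genes with a mean of at least 1 FPKM. The highest of so many values are picked and are no evidence of a link. Mest was most like Ppih (0.59) and Pqlc1 (0.55), Igf2r most like Tfb1m (0.51) and 9330151L19Rik (0.50), and Peg3 most like Med31 (0.49) and Vdac3 (0.48). For Snrpn both were genes of the Y chromosome, Ddx3y (0.64) and Gm47283 (0.64). Within pEPI cells the correlation of Snrpn with Ddx3y was 0.74 and within pPrE cells 0.60.

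Snrpn was therefore set beside Y-linked counts. As the correlation with Ddx3y prompted this comparison, its values describe that pattern further and are no separate evidence for it. The cells A1 to C2 (18 cells) and E1 to F3 (11 cells) had at least 242 counts on Ddx3y, Eif2s3y, Uty and Kdm5d together, and C3 to D8 (14) and F4 to F8 (5) had at most 1. Snrpn ran from 54.6 through 94.5 to 199.9 FPKM in the 29 cells with these counts and from 23.2 through 53.4 to 119 FPKM in the 19 without. The lower part of the first range overlapped the second, but the cell with Y-linked counts was the higher in 88.9% of pairs, a share that 0.414% of all genes reached. By ratio it stood out less, as 9.34% of all genes had one at least as high. The means were 102 ± 36.2 and 58.2 ± 22.1 FPKM, a log2 ratio of 0.81 (0.78 to 0.85), and the difference was above the SD of either set.

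This difference was present in both branches, at 111 against 62.8 FPKM in pEPI cells and 89.9 against 54.8 FPKM in pPrE cells. It was also present between the runs of wells, with means of 99.9, 60.8, 106 and 50.8 FPKM from A1 to F8. Median totals were similar, at 3966900 and 4251400 counts. Marker lists differed by this split too. Trophectoderm markers summed to 104 CPM with and 73.3 CPM without Y-linked counts, in the direction of Snrpn. The other lists went the opposite way: pEPI markers summed to 1912 CPM with and 2809 CPM without Y-linked counts and pPrE markers to 717 and 982 CPM. Of the 8 pEPI and 7 pPrE markers with a mean of at least 1 FPKM, 2 each were at least 2-fold lower in cells with these counts. Of all 10880 genes 7.67% were. Cells with Y-linked counts came from embryos with a Y chromosome, but sex, embryo and position on the plate cannot be told apart in these cells.

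Of the 4 listed genes with a mean of at least 1 FPKM, none was 2-fold higher in cells with Y-linked counts (7.05% of all genes were) or 2-fold lower (7.67%). Mest had the nearest ratio to Snrpn, 0.85, and it was 1.59 within pEPI and 0.34 within pPrE cells. Of the 16 other imprinted genes, 3 were 2-fold higher and 3 lower. Asb4 was on in 10 of 29 cells with Y-linked counts and had no count in the 19 without, which allows a share of up to 17.6% of such cells on. Cobl went the other way, on in 4 of 29 and 10 of 19 cells (log2 ratio -3.60).

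Branch and Y-linked counts together described where these genes were on. Asb4 was on in 9 of 17 pEPI cells with Y-linked counts, in 1 of 12 such pPrE cells and in no cell without. Cobl was on in 8 of 8 pEPI cells without Y-linked counts, in 4 of 17 pEPI cells with them, in 2 of 11 pPrE cells without and in 0 of 12 pPrE cells with. Slc38a4, an amino acid transporter chosen here after its values were seen, ran from 8.68 through 38.6 to 89.7 FPKM with Y-linked counts and from 0 through 13.5 to 45.6 FPKM without. These ranges overlapped, and the log2 ratio of the means, 43.4 and 18.2 FPKM, was 1.25.

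**Figure D4:**
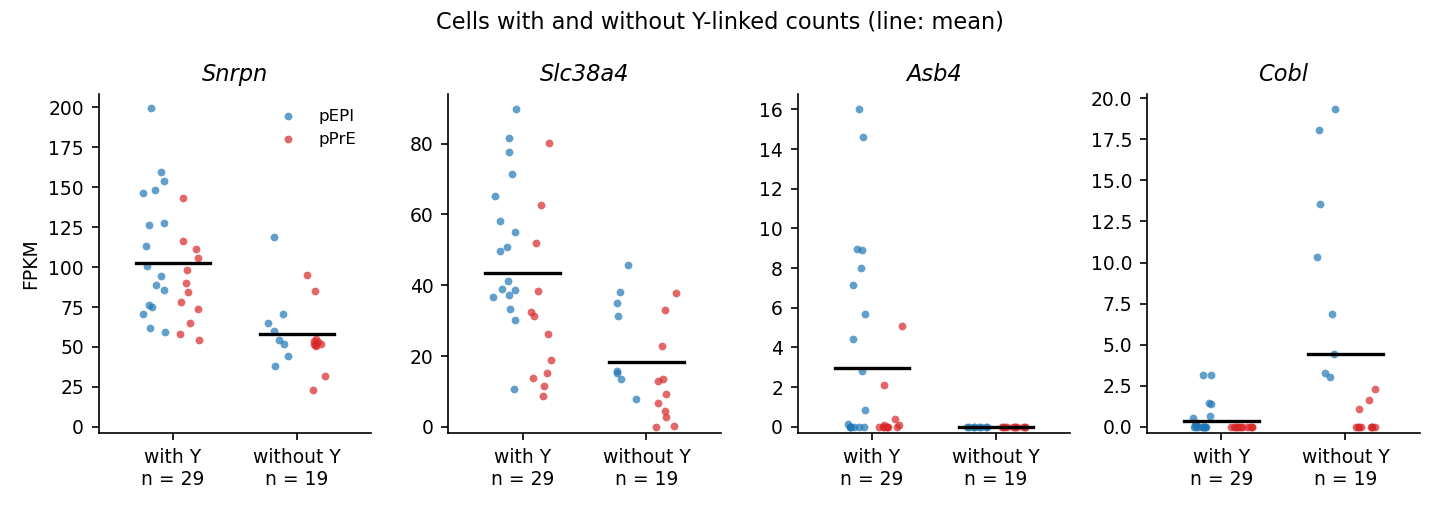
FPKM of Snrpn, Slc38a4, Asb4 and Cobl in the 29 cells with and the 19 cells without Y-linked counts, with pEPI cells in blue, pPrE cells in red and a black line for the mean of each set. Snrpn and Slc38a4 sit higher on the left, Asb4 is at 0 in all 19 cells on the right, and Cobl is highest in pEPI cells on the right.

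Reads on bases shared by genes limit some of these values, because such reads are left out by htseq-count in its default mode and neither mode nor strand is stated. Snrpn shares 34.1% of its exon bases with Gm38393, Snurf and a pseudogene, and Gm38393 had 4709 counts of its own. Snurf lies wholly within those shared bases and had 0 counts, which says nothing of its level. Mest shares 23.1% of its exon bases with Copg2 and Cdkn1c 30.7% with Gm44732. Igf2 shares 1.71% of its exon bases with Igf2os. H19 shares 9.15% with Gm27483, Gm27786 and Mir675, and Meg3 8.29% with Gm26906, Gm27300, Mir1906-1 and Mir770. Grb10, Igf2r, Peg3 and Peg10 share none.

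Promoter windows from RefSeq (GRCm38.p6, 250 bases before to 50 bases after a gene start) were at hand for 7 of the 10 listed genes, all but H19, Peg10 and Cdkn1c. They were searched on both strands for TGCCGC, the letters that ZFP57 binds when the CpG within is methylated, written GCGGCA on the other strand. Of all 32817 windows of this kind 11.6% held it, and of the 17 windows of listed genes 6 did, with 2 of these 6 nearly the same stretch of Mest. The other 3 windows of Snrpn and the other 1 each of Mest, Meg3 and Grb10 held none, and neither did 3 of the 4 of Igf2 or those of Peg3 and Igf2r. A match describes the letters only. Windows of Snrpn, which was on in every cell, and of Mest, Meg3 and Peg3, which were on in some, are printed with the motif in capitals: Snrpn at chr7:60005150-60005449 (minus strand, 1 match, 7 CpG), Mest at chr6:30737800-30738099 (plus, 2 matches, 17 CpG), Meg3 at chr12:109540746-109541045 (plus, 1 match, 13 CpG) and Peg3 at chr7:6730370-6730669 (minus, 0 matches, 13 CpG).
Snrpn: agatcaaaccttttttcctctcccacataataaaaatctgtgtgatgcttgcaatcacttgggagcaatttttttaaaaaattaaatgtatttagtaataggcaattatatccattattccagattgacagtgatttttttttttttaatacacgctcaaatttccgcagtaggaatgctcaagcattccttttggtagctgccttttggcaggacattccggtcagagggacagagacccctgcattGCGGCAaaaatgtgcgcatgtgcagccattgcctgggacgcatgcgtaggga
Mest: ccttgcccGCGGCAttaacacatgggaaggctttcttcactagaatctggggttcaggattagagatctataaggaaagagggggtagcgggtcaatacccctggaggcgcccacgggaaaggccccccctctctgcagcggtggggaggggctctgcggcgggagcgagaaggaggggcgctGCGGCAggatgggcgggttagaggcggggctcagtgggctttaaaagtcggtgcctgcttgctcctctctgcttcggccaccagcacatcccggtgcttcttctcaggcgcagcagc
Meg3: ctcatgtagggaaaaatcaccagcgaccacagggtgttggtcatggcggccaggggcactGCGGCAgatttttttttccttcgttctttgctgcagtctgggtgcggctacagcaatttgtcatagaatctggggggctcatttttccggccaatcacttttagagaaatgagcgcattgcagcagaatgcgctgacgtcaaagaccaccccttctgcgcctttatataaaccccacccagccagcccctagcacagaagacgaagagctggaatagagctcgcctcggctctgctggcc
Peg3: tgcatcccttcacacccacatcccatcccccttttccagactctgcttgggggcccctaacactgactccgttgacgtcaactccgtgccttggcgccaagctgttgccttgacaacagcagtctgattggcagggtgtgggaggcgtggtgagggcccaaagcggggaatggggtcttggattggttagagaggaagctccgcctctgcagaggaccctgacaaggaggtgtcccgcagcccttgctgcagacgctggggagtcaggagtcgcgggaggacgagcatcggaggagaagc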

How the data were processed

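Single ICM cells at E3.75 were sequenced by Smart-seq2. The authors aligned reads to mm10 and deposited raw counts per Ensembl 87 gene from htseq-count; the submitters' processing notes name STAR and HTSeq without versions. The members and gene lists were chosen with earlier results of these data known. For FPKM, counts were divided by union exon length (GENCODE M21, GRCm38) and by median-of-ratios library size; CPM is the share of a cell's total. Genes with a mean of at least 1 FPKM entered counts past 2-fold. Ratio intervals take their width from an exact interval on summed counts. Named genes were the 10 listed, other imprinted genes that passed 2-fold, were on in 10% to 90% of cells or shared a region with a listed gene, and the 2 most correlated genes of each listed gene that was on in at least 10 cells and had a mean of at least 1 FPKM. The comparison by Y-linked counts (100 or more over 4 genes) across imprinted genes was added after the data had been seen. Alternatives covered library size, summary, thinning, minimums, cells left out, grouping and gene length. The branch ratio, the share of cells on, the excess of CV squared over its curve and the binomial interval were tested on simulated data. The other steps were not. Scripts ran in Python 3.11.15 with scipy 1.17.1, pandas 2.3.3, matplotlib 3.10.9 and numpy 2.4.6.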

Additional observations from a re-analysis of the deposited data

How the results depend on the processing

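The log2 ratio of Snrpn between branches stayed below 0 under every alternative that could move it, from -0.46 to -0.20. That of Igf2r was 0.18 and that of Mest 0.94 within cells without Y-linked counts, and Mest was at 0.01 without the cells of well letter A. Peg3 was at 0.71 where Y-linked counts were present, at -1.65 where they were absent and at 0.13 without letter F. Below the minimum of 1 FPKM, Igf2 went from -3.06 to 3.20, Grb10 from -0.74 to 0.83 and Meg3 from -1.36 to 0.22 between cells with and without these counts. For these ratios the direction therefore depends on the cells used, and the cause was not tested. Listed genes past 2-fold lower in pPrE cells rose from 0 to 1 within cells without Y-linked counts and to 2 without a minimum of FPKM.

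Over all genes, 286 were 2-fold higher and 408 lower in pPrE cells by the mean of log2(FPKM + 1), and 418 and 628 with a pseudocount of 1 FPKM. The counts were 186 and 300 with a mean of at least 5 FPKM, and 2119 and 2604 without a minimum. The minimums changed how many genes were tested. The mean of log2(FPKM + 1) changed the summary and the pseudocount together. Within cells without Y-linked counts 1361 were higher and 1435 lower. Of all 60 imprinted genes, the count of 1 that was higher became 0 with the pseudocount, without letter B and with a mean of at least 5 FPKM, 2 without letter A and 5 without a minimum. Equal counts did not always mean equal genes: Sfmbt2 fell to 0.35 by the mean of log2(FPKM + 1) and to 0.64 without letter E, where Mcts2 (1.54 and 1.29) took its place. The gene that was higher was Mcts2 (3.78) by medians over cells, Phlda2 (1.01) without each gene's highest cell and Jade1 (1.02) within cells without Y-linked counts. The count of 2 that were lower became 4 without letter A, without letter D and within cells without Y-linked counts, 1 within cells with them, 0 with a mean of at least 5 FPKM and 11 without a minimum. It became 3 with total counts as library size, without letter B and without letter E. Grouping cells by their first principal component without imprinted genes also gave 3. By the mean of log2(FPKM + 1) Asb4 was at -0.95, short of 2-fold, and Slc38a4 (-1.27) took its place. By medians over cells the genes that were lower were Blcap (-4.35) and Slc38a4 (-1.34). Zfp57 was at -0.97 within cells with Y-linked counts. With a minimum of 1 count instead of 10 CPM, Igf2r was on in 48 cells, Grb10 in 27, Meg3 in 26 and Igf2 in 13. With 1 FPKM, which is scaled for length, Igf2r was on in 45 cells, Mest in 35, Peg3 in 16, Grb10 in 16 and Meg3 in 6. Igf2 and Cdkn1c were then on in 4 cells each. With 50 CPM, Igf2r was on in 22 cells, Mest in 15, Peg3 in 6, Grb10 in 1 and Meg3, Igf2 and Cdkn1c in 0, so the shares of cells on depend on this minimum for these genes, while Snrpn was on in 48 throughout. The ratio of Snrpn between cells with and without Y-linked counts, with alternatives chosen after seeing the data, lay between 0.71 and 0.90. With unshared exon bases as length the mean of Snrpn was 129 FPKM. With the longest transcript as length Grb10 was at 1.72 FPKM, above the minimum of 1, Peg3 at 1.89 and Mest at 12.8. No paired analysis was possible because no label ties cells to embryos.

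In the shallowest cell 3 counts equal 1.75 CPM, and in the deepest 0.409 CPM. With all cells thinned to the lowest total, Igf2 was detected in 12 cells instead of 13, Peg3 in 22 instead of 23, Meg3 in 25 instead of 26 and Grb10 in 27 as before.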

Other observations

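The 4 listed genes that were on in some cells and off in others, Mest, Peg3, Grb10 and Meg3, occurred in 13 of 16 possible combinations. Mest alone was the most frequent, in 12 cells, and Grb10 with Mest and Peg3 alone followed with 7 cells each. No gene of the 4 was on in 4 cells (1 pEPI and 3 pPrE), 1 was on in 21 cells, 2 in 16, 3 in 4 and all 4 in 3. Of the 11 cells with Meg3 on, 10 also had Mest on, where independent patterns would give 7.56. Mest and Peg3 were on together in 8 cells, with 11.7 under independence. By the difference in cells the other pairs lay nearer to independence. Peg3 and Meg3 were together in 4 cells against 3.90, Peg3 and Grb10 in 6 against 5.67, and Mest and Grb10 in 13 against 11. Meg3 and Grb10 were together in 5 against 3.67, by ratio further from independence than Meg3 and Mest. Correlations with the number of genes detected per cell were weak, at 0.34 for Meg3, 0.32 for Mest, 0.26 for Grb10 and 0.02 for Peg3 (Spearman).

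Grb10 was looked at by well letter after its values were seen, and groups of 8 cells range widely by chance. Grb10 was on in 6 of the 8 cells of letter E and 5 of the 8 of letter F, against 0 in A, 2 in B, 2 in C and 1 in D. Median totals were 3935500 and 4827200 counts in letters E and F and between 2977900 and 4547400 in the others. Mest was on in 7 cells each of letters E and F and in 4 or 5 of the others. By Y-linked counts Grb10 was on in 11 of 29 cells with and 5 of 19 without, and letters A, B and E, which all had such counts, differed. Embryo and position on the plate cannot be told apart here.

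All 4 cells with a count of Cdkn1c had Y-linked counts, as did 29 of all 48 cells, so these few cells show little. Phlda2, its neighbour, was on in 2 of 29 cells with Y-linked counts and in 7 of 19 without. Its log2 ratio was -1.44, and 7.67% of all 10880 genes were at least 2-fold lower in cells with these counts.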
